A study of Mus musculus with 27 samples.

Results

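The genes described here carry the signal from an occupied Toll-like receptor (TLR) to the kinases inside the cell: the adapters Myd88, Tirap, Ticam1 and Ticam2, the IRAK kinases Irak1, Irak2, Irak3 and Irak4, and the ubiquitin ligases Traf6 and Traf3. Their 10 genes were found by gene name on the array and have 16 probes, of 32138 gene names and 55681 non-control probes in all. Gene expression was measured on 1-colour arrays in bone marrow-derived macrophages (BMDM) of female C57BL/6 mice aged 6 to 8 weeks, grown for 7 days in L929-conditioned medium and carrying no engineered allele according to the labels. Naive cells received no ligand, and acutely stimulated cells received 1 of 4 ligands for 4 h: 100 ng/ml LPS (a TLR4 ligand), 100 ng/ml Pam3CSK4 (TLR2), 10 µg/ml Poly(I:C) (TLR3) or CpG DNA (TLR9), the last labelled as 100 µM although the study's methods give another concentration. Re-stimulated cells were held with a ligand for 24 h, washed, and given the same ligand again for 4 h. No group was held for 24 h without the second dose, so effects of the first and the second dose cannot be told apart. The 9 conditions have 3 arrays each in the labels, and 25 of the 27 arrays have deposited values, so that acute Pam3CSK4 and re-stimulated LPS have 2. The study describes each replicate both as a different mouse and as a pool of several, so the replicates are independent cultures whose number of animals is uncertain.

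Each receptor recruits adapters through a shared TIR domain. MyD88, bridged to TLR2 and TLR4 by TIRAP, assembles IRAK4 with IRAK1 or IRAK2, which engage TRAF6 and lead to NF-κB and MAP kinase activation, whereas IRAK3 (IRAK-M) restrains this step. TRIF, the product of Ticam1, serves TLR3 directly and TLR4 through the bridging adapter TRAM, the product of Ticam2, and reaches TRAF3 and the type I interferon genes. In macrophages IRAK3 is known as a protein of endotoxin tolerance.

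All values are the deposited log2 values, and a gene is represented by its brightest probe unless another is named. Levels of different genes cannot be compared, because each probe binds with its own efficiency. All 10 brightest probes were well above background on 25 of 25 arrays and none was saturated. A change was called where limma gave a Benjamini-Hochberg adjusted p under 0.05 over all probes tested and a change of at least 1.5-fold.

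Before the results, 3 features of the arrays bear on them. The acute LPS arrays lie on 3 slides of their own, whereas the other 8 conditions share 3 slides, which follow the replicate number. In every comparison with acute LPS the ligand, the slide and any difference between cultures therefore cannot be told apart. Naive replicate 3 stood apart, with 74.9% of probes well above background against 43.1% to 55.0% on the other 24 arrays. Results given without it set naive replicates 1 and 2 against groups that, outside LPS, still hold replicate 3 and its slide. The macrophage markers (Emr1, Csf1r, Cd68, Itgam, Lyz1, Lyz2, Mertk and Fcgr1) were above background on all 25 arrays, as were Elane, Cd3e and Cd79a, while Pdgfra and Xcr1 were above it on 0. The neutrophil markers Ly6g and Mpo split the cultures: Ly6g was above background on 15 of 15 arrays of replicates 1 and 2 outside acute LPS (8.74 to 12.78), on 1 of 7 arrays of replicate 3 (1.82 to 6.42) and on 0 of 3 acute LPS arrays (2.96 to 3.78). Mpo was above background on 14 of 15, 0 of 7 and 2 of 3 of the same arrays. Elane, by contrast, lay between 11.08 and 12.73 on all of them. In bulk RNA a lower share of a cell type and less RNA per cell cannot be told apart.

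The regulatory sequence in front of 2 adapter genes is shown because acute Poly(I:C) raised Myd88 and gave the lowest Ticam1 arrays of the series. The Myd88 rise was also called with acute LPS, and the Ticam1 fall against naive cells did not pass. Each line gives the 250 bases before the annotated start (RefSeq, GRCm38.p6), for Myd88 at chr9:119340019-119340268 and for Ticam1 at chr17:56276768-56277017, both read on the minus strand. Capitals mark a match to the core of the interferon-stimulated response element, searched as GAAA, any 2 bases and GAAA, or to the NF-κB consensus, both on either strand.
Myd88: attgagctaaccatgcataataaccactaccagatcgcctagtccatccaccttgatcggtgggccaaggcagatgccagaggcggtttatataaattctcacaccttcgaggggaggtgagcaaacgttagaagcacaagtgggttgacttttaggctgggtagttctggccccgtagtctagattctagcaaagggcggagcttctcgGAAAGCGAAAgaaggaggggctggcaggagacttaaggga
Ticam1: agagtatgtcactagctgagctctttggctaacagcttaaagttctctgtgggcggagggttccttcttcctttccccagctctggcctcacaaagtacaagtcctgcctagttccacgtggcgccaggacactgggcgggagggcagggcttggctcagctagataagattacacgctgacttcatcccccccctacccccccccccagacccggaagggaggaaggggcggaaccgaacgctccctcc
The Myd88 window held GAAAGCGAAA from position -40 to -31, and the Ticam1 window held neither motif. Windows were found for 9 of the 10 genes, 12 windows in all. Among them the response element core was found at Myd88 alone, and the NF-κB consensus at Traf3 (GGGGATTTCC, -10 to -1) and in both windows of Irak1 (GGGACGCCCC, which matches on either strand). Of 32851 windows of this length, 2.98% held the response element core and 7.25% the NF-κB consensus. These matches describe letters and not bound sites, and their part in the changes of these genes was not tested.

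Of the 8 called changes against naive cells, 7 were rises of Myd88 or Ticam2. These fits had no term for the replicate number. With that number as a block, Irak2 and Ticam2 after acute CpG and Myd88 after acute Poly(I:C) lost their calls. Ticam2 lost its calls in re-stimulated CpG and Pam3CSK4 cells as well. The 2 calls after acute LPS cannot be told apart from its slides. After acute LPS 2 genes were called, both higher (Myd88 and Ticam2), where 26.5% of all probes tested were called and 13.2% were higher. After acute CpG 2 were called, both higher (Irak2 and Ticam2), against 5.72% of all probes and 3.09% higher. After acute Poly(I:C) 1 was called, Myd88, against 6.03% of all probes and 3.8% higher. After acute Pam3CSK4, with 2 arrays, limma called 0 of the 10 genes and 0% of all probes, while 5 genes and 3458 of 27843 probes had an unadjusted p under 0.05. All acute arrays lay to 1 side of the naive arrays for 5 genes with LPS, 4 with CpG, 8 with Pam3CSK4 and 4 with Poly(I:C). Among all probes the groups did not overlap for 47.7%, 31.3%, 32.2% and 29.3% in the same order. The median change of the 10 genes was 0.36, 0.71, 0.89 and 0.14 (log2) after acute LPS, CpG, Pam3CSK4 and Poly(I:C), and that of all probes -0.01, -0.07, 0.01 and -0.1.

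Between acute and re-stimulated cells 3 genes were called with LPS, of which Irak3 and Traf3 were higher (17.2% of probes) and Myd88 lower (17% of probes), against 34.2% of all probes in either direction. For CpG, Pam3CSK4 and Poly(I:C) limma called 0 genes, against 3.56%, 0% and 4.93% of probes, and 1, 1 and 3 genes had an unadjusted p under 0.05. The groups did not overlap for 5 genes with LPS, 1 with CpG, 4 with Pam3CSK4 and 3 with Poly(I:C), against 62.7%, 28.4%, 31.8% and 32.1% of probes. Between naive and re-stimulated cells 2 genes were called with CpG, both higher (Myd88 and Ticam2), against 13.1% of probes and 6.65% higher. With Pam3CSK4 1 was called, Ticam2, against 5.36% of probes and 2.61% higher. With LPS 0 genes passed against 5.66% of probes, and with Poly(I:C) 0 against 9.03%, while 3 and 2 genes had an unadjusted p under 0.05. Here the groups did not overlap for 8 genes with LPS, 5 with CpG, 4 with Pam3CSK4 and 2 with Poly(I:C), against 48.1%, 39.2%, 32.6% and 35.8% of probes. The acute and the re-stimulated comparisons with naive cells share the 3 naive arrays.

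**Figure D1:**
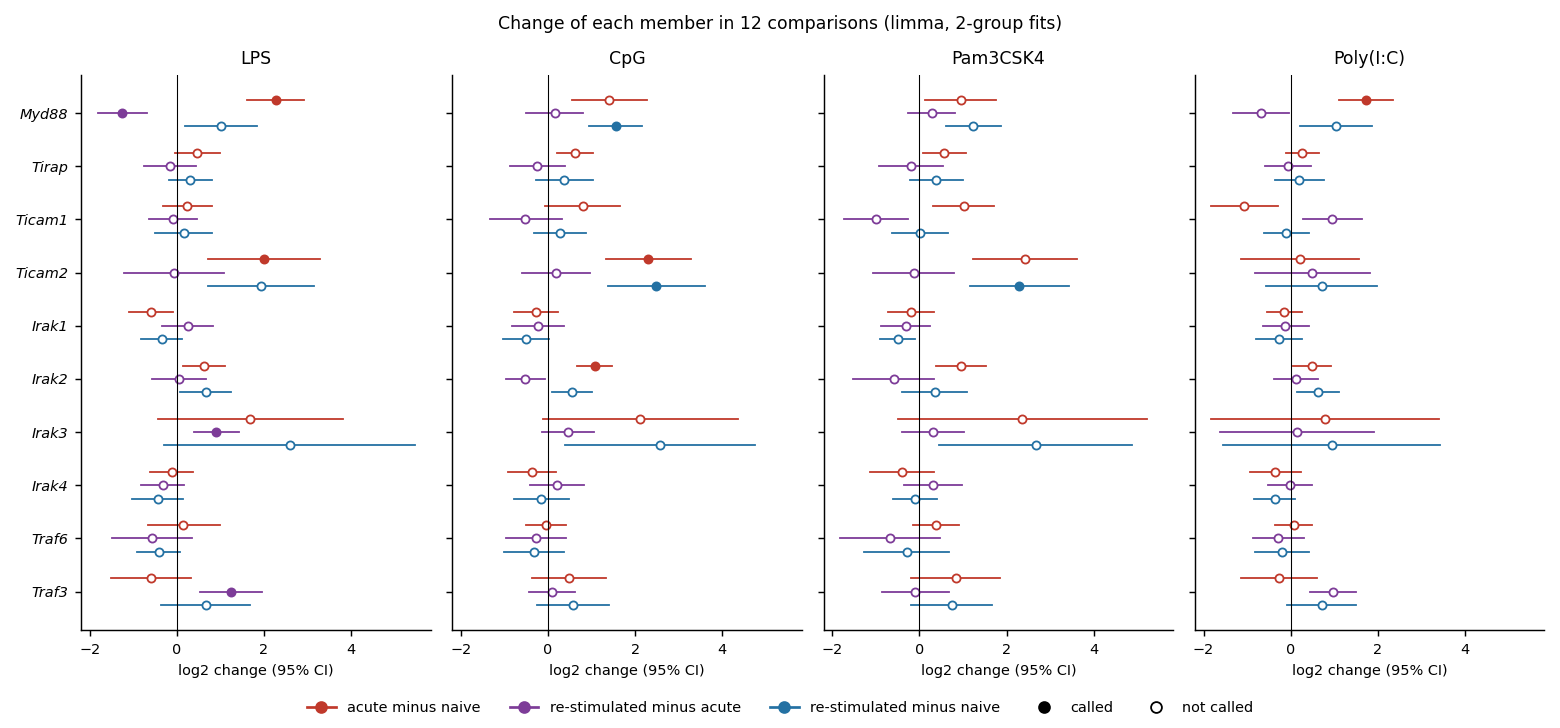
Log2 change of each gene (points) with its 95% confidence interval (lines) in 12 comparisons, 1 panel per ligand, with called changes filled and colours for the 3 comparisons of each ligand. Myd88 and Ticam2 hold 7 of the 8 filled points against naive cells, in fits without a term for the replicate number. The intervals of Irak3 against naive cells are the widest.

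Myd88, the adapter used by all TLRs but TLR3, was lowest in naive cells, at 11.5, 11.71 and 12.34. Acute LPS gave 14.04, 13.94 and 14.37, and acute Poly(I:C) gave 13.59, 13.6 and 13.53. Every one of these 6 arrays lay above all 3 naive arrays. Acute CpG gave 12.84, 13.09 and 13.82, and acute Pam3CSK4 gave 12.88 and 12.73, again with no overlap with naive. The rise was 2.27 ± 0.28 (log2, SE, adjusted p = 0.0031, 4.81-fold) with LPS and 1.72 ± 0.25 (adjusted p = 0.0211, 3.31-fold) with Poly(I:C). With the replicate number as a block the Poly(I:C) rise had an adjusted p of 0.0516 and was lost, while the CpG change of 1.40 ± 0.35 (adjusted p = 0.0773 without the block) passed at 0.0477. The Pam3CSK4 change was 0.95 ± 0.32 (adjusted p = 0.352). On leaving out each array in turn the LPS rise kept its call 6 of 6 times. The Poly(I:C) rise lost it without replicate 1 or 2 of the naive or of the Poly(I:C) arrays, at 1.55 to 1.72 with adjusted p from 0.0707 to 0.108. The gene is measured by 10 spots of 1 probe on each array, at chr9:119245322-119245381 (mm9).

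On re-stimulation Myd88 took different courses. LPS re-stimulated cells gave 13.03 and 12.7, below all 3 acute LPS arrays and above all naive arrays, and the change from acute was -1.25 ± 0.23 (log2, adjusted p = 0.00951), or -1.09 (adjusted p = 0.0698) without LPS re-stimulated replicate 2. Re-stimulated Poly(I:C) cells gave 12.62, 12.62 and 13.45, also below their acute arrays, but the change of -0.68 ± 0.26 did not pass (adjusted p = 0.17). CpG re-stimulated cells gave 13.41, 13.44 and 13.36, within the range of acute CpG. Pam3CSK4 re-stimulated cells gave 13.02, 13.22 and 13.01, above both acute arrays by a mean of 0.28 ± 0.21 (adjusted p = 0.616). Against naive the CpG re-stimulated level was 1.55 ± 0.25 higher (adjusted p = 0.0184), a call lost without any of the 3 CpG re-stimulated arrays or naive replicate 1 or 2 (1.38 to 1.57, adjusted p from 0.0546 to 0.0746). Against naive the LPS re-stimulated level was 1.01 ± 0.32 higher (adjusted p = 0.132). Without naive replicate 3 the acute CpG change (1.65) and those of re-stimulated LPS (1.26), Pam3CSK4 (1.48) and Poly(I:C) (1.29) passed as well (adjusted p = 0.0383, 0.0143, 0.009 and 0.0498). The re-stimulated Pam3CSK4 level was 1.23 ± 0.26 higher (adjusted p = 0.0535). The re-stimulated Poly(I:C) level was 1.04 ± 0.34 higher (adjusted p = 0.113, or 0.0493 with the replicate block, where it passed). In the fit of all 9 groups the change on re-stimulation differed between LPS and CpG by -1.40 ± 0.39 (adjusted p = 0.0384), and between LPS and Pam3CSK4 by -1.53 ± 0.41 (adjusted p = 0.031), where 6.35% and 7.2% of all probes were called. Between LPS and Poly(I:C) the difference was -0.57 ± 0.39 (adjusted p = 0.443), with 3.61% of probes called. All 3 differences include acute LPS and therefore its slides.

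**Figure D2:**
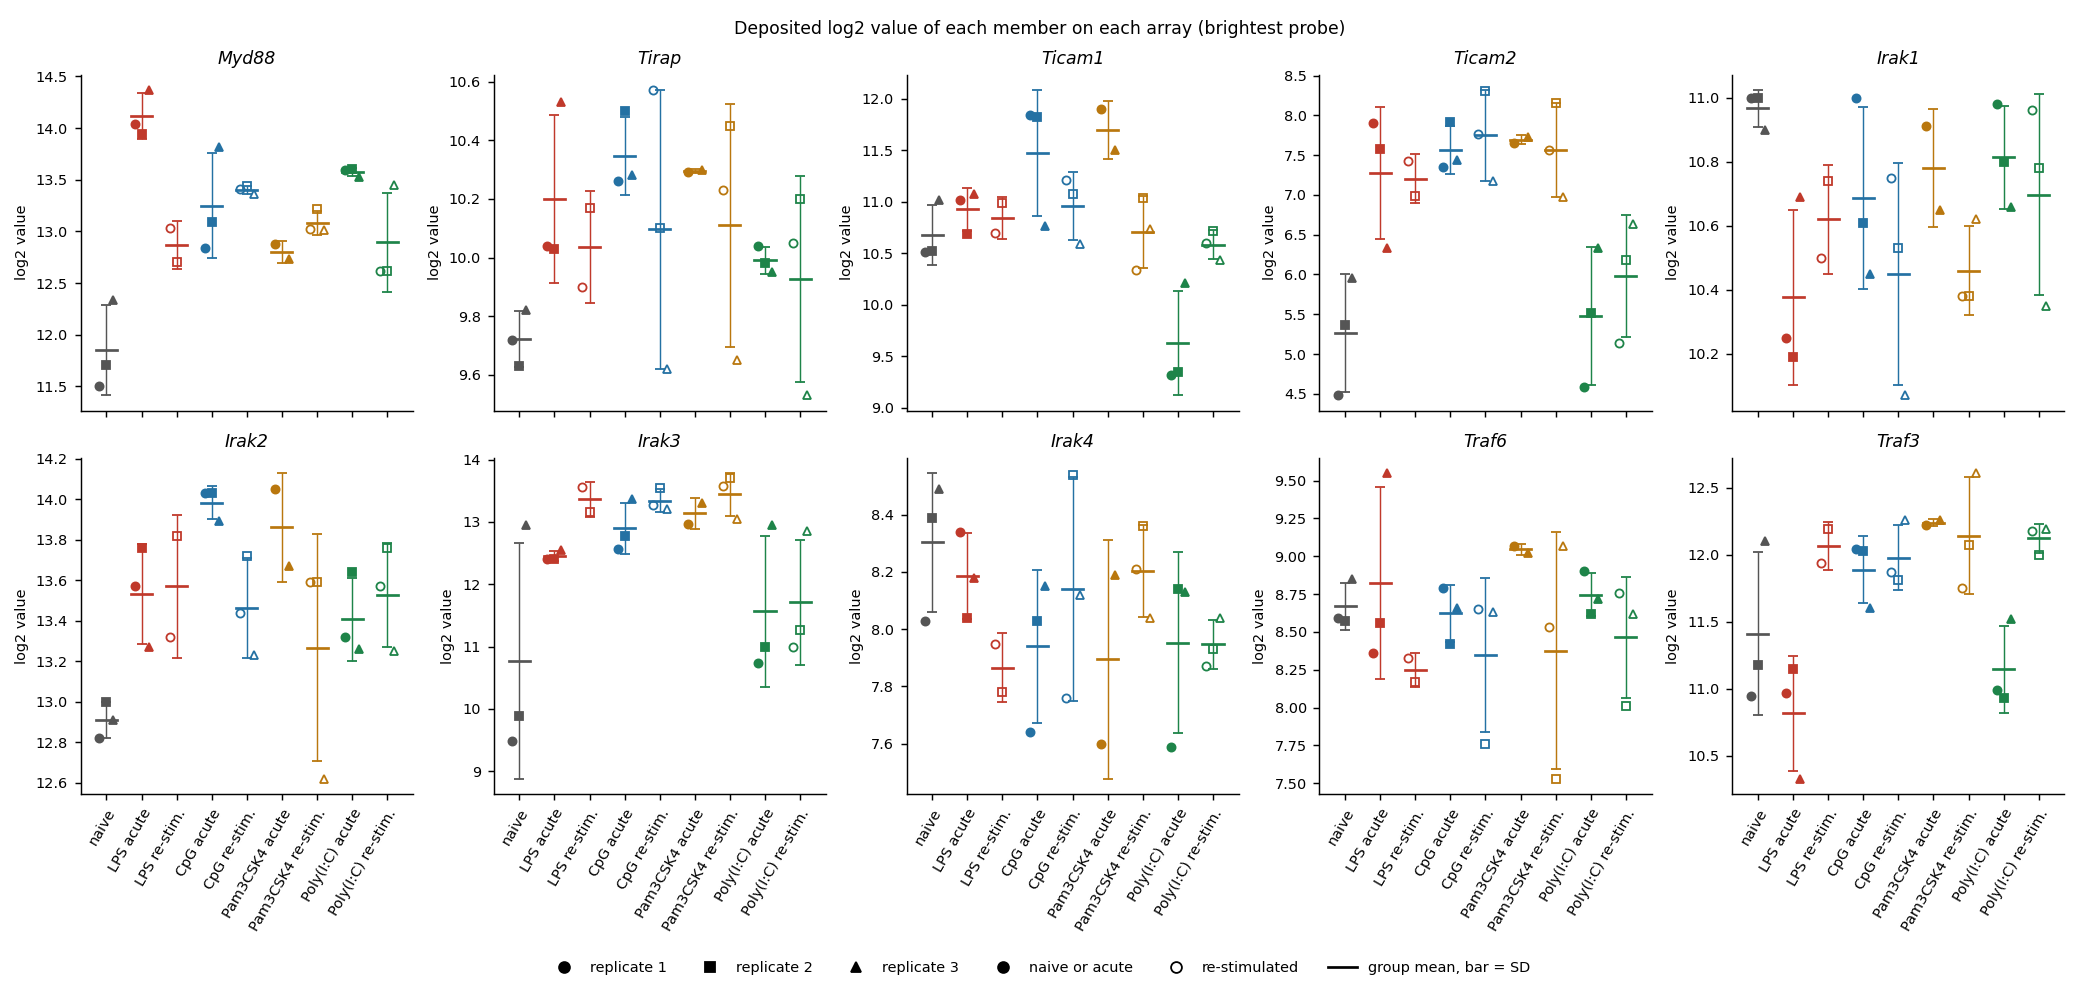
Deposited log2 value of each gene (vertical axis, its own scale in each panel) on each of 25 arrays in 9 conditions. Symbols mark the replicate, filled symbols naive or acute cells, open symbols re-stimulated cells, and lines the mean and SD. The naive arrays of Myd88 lie at or under 12.34, the 3 acute Poly(I:C) arrays of Ticam1 lie lowest in their panel, and naive replicate 3 of Irak3 lies 3.26 above the mean of the other two naive arrays.

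Tirap, the bridging adapter of TLR2 and TLR4, varied little, between 9.53 and 10.57 over the 25 arrays. None of its 12 comparisons passed. Its naive arrays (9.72, 9.63 and 9.82) nonetheless lay below every acute array: acute CpG gave 10.26, 10.5 and 10.28, a change of 0.62 ± 0.17 with an adjusted p of 0.0955. The changes after acute LPS, Pam3CSK4 and Poly(I:C) were 0.47 ± 0.21, 0.57 ± 0.19 and 0.27 ± 0.15 (adjusted p = 0.146, 0.354 and 0.375).

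By brightest probes, Ticam1, which encodes TRIF, was the only 1 of the 10 genes with its lowest group mean under acute Poly(I:C). That is the ligand of the receptor that signals through TRIF alone. The other Irak4 probe also had its lowest group mean there, at 6.84. For Ticam1 acute Poly(I:C) gave 9.32, 9.35 and 10.21, below the naive arrays at 10.51, 10.52 and 11.02 and below every other array of the series. Acute CpG gave 11.84, 11.82 and 10.77, and acute Pam3CSK4 gave 11.9 and 11.5. Acute LPS, at 11.02, 10.69 and 11.08, overlapped with naive. None of the changes against naive passed: -1.06 ± 0.31 with Poly(I:C) (adjusted p = 0.113), 0.79 ± 0.35 with CpG (adjusted p = 0.249), 1.02 ± 0.28 with Pam3CSK4 (adjusted p = 0.3) and 0.24 ± 0.23 with LPS (adjusted p = 0.465). With replicates 1 and 2 alone, a choice made after seeing the arrays, the fall with Poly(I:C) was called at -1.18 (adjusted p = 0.00835). The rise with CpG was called at 1.31 (adjusted p = 0.0123). Acute Pam3CSK4 then had replicate 1 alone, 1.39 above naive. Re-stimulated cells had group means from 10.59 to 10.96 and no array outside 10.34 to 11.21. Re-stimulated Poly(I:C) gave 10.6, 10.72 and 10.44, above all 3 acute arrays, a change of 0.96 ± 0.28 that did not pass (adjusted p = 0.0976). Re-stimulated Pam3CSK4 gave 10.34, 11.04 and 10.74, below both acute arrays, a change of -0.99 ± 0.30 (adjusted p = 0.259).

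Ticam2, which encodes the TRAM bridge between TLR4 and TRIF, had called rises in both states. Naive cells gave 4.48, 5.36 and 5.95. Acute LPS gave 7.9, 7.58 and 6.33, acute CpG 7.35, 7.91 and 7.44, and acute Pam3CSK4 7.65 and 7.73. All of these lay above the naive arrays, whereas acute Poly(I:C), at 4.59, 5.51 and 6.33, overlapped with them. The rise was 2.00 ± 0.53 with LPS (adjusted p = 0.0366, 4.01-fold) and 2.30 ± 0.40 with CpG (adjusted p = 0.0333, 4.93-fold). With Pam3CSK4 the change was 2.43 ± 0.46 (adjusted p = 0.288, 2 arrays), and with Poly(I:C) the change was 0.21 ± 0.56 (adjusted p = 0.856). In re-stimulated cells LPS gave 7.42 and 6.99, CpG 7.77, 8.31 and 7.17, Pam3CSK4 7.56, 8.16 and 6.97, and Poly(I:C) 5.14, 6.18 and 6.63. Again Poly(I:C) alone overlapped with naive. Against naive the change passed for re-stimulated CpG, at 2.48 ± 0.46 (adjusted p = 0.0241), and Pam3CSK4, at 2.29 ± 0.47 (adjusted p = 0.0488), and not for LPS, at 1.94 ± 0.48 (adjusted p = 0.083). With the replicate number as a block the acute CpG, re-stimulated CpG and re-stimulated Pam3CSK4 rises had adjusted p of 0.0606, 0.0564 and 0.087 and were lost. Without any single array other than replicate 3 of either group, the LPS and CpG acute rises lost the call, at 1.61 to 2.05 (adjusted p from 0.0862 to 0.118) and 1.91 to 2.41 (adjusted p from 0.0749 to 0.13), the latter without CpG replicate 3 too. The re-stimulated CpG and Pam3CSK4 rises kept the call only without naive replicate 3 and otherwise lay at 2.09 to 2.78 (adjusted p from 0.0526 to 0.0858) and 1.90 to 2.59 (adjusted p from 0.0669 to 0.162). Without naive replicate 3 the acute Pam3CSK4 change of 2.77 and the re-stimulated LPS change of 2.28 passed too (adjusted p = 0.0441 and 0.0123). With normexp correction the 4 called rises of Ticam2 kept their calls but were smaller, at 1.05 (acute LPS), 1.23 (acute CpG), 1.37 (re-stimulated CpG) and 1.23 (re-stimulated Pam3CSK4). The 4 changes between acute and re-stimulated cells lay between -0.13 ± 0.38 and 0.50 ± 0.55.

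Irak1 and Irak4, the kinases that phosphorylate within the MyD88 complex, had the narrowest ranges by their brightest probes, 0.93 and 0.96. Irak4 ranged from 7.59 to 8.54 and none of its 12 comparisons passed, nor did any with its other probe. Irak1 was highest in naive cells (11, 11 and 10.9) and lowest after acute LPS (10.25, 10.19 and 10.69), without overlap. That change of -0.59 ± 0.21 (log2) did not pass with the brightest probe (adjusted p = 0.0793). The other 2 Irak1 probes fell, by 0.93 ± 0.23 (adjusted p = 0.031) and 0.87 ± 0.17 (adjusted p = 0.013).

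Irak2, a kinase that sustains signalling through TRAF6, was lowest in naive cells in its mean. Naive arrays gave 12.82, 13 and 12.91, and acute CpG gave 14.03, 14.03 and 13.89, a rise of 1.07 ± 0.16 (adjusted p = 0.0259, 2.10-fold) that had an adjusted p of 0.0595 with the replicate block. Without replicate 1 or 2 of either group the rise was 1.02 to 1.12 and lost the call (adjusted p from 0.0914 to 0.12). Acute Pam3CSK4 gave 14.05 and 13.67 (0.95 ± 0.22, adjusted p = 0.288). Acute LPS gave 13.57, 13.76 and 13.27 (0.62 ± 0.20, adjusted p = 0.064), and acute Poly(I:C) gave 13.32, 13.64 and 13.26 (0.50 ± 0.18, adjusted p = 0.177). All 11 acute arrays were above the 3 naive ones. The other Irak2 probe, at chr6:113643695-113643754 (mm9), moved further: its naive arrays gave 7.74, 7.68 and 8.77 and its acute CpG arrays 10.22, 10.18 and 10.23. By this probe the rise was 2.15 ± 0.33 with acute CpG (adjusted p = 0.0255) and 1.70 ± 0.33 with acute LPS (adjusted p = 0.0129). In re-stimulated CpG cells this probe gave 9.48, 9.33 and 9.02, a difference of -0.93 ± 0.18 from acute CpG (adjusted p = 0.0475). The brightest probe gave that difference as -0.52 ± 0.19 (adjusted p = 0.177).

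Irak3, which encodes the inhibitory IRAK-M, had the widest range of any member, from 9.49 to 13.7. Naive replicates 1 and 2 gave 9.49 and 9.88, while naive replicate 3 gave 12.95. Acute LPS gave 12.41, 12.4 and 12.55, acute CpG 12.56, 12.77 and 13.36, and acute Pam3CSK4 12.96 and 13.31. In re-stimulated cells LPS gave 13.56 and 13.16, CpG 13.27, 13.55 and 13.21, and Pam3CSK4 13.57, 13.7 and 13.05. Acute Poly(I:C) gave 10.74, 11 and 12.95, and re-stimulated Poly(I:C) 11, 11.27 and 12.86, again with replicate 3 high. The level of naive replicate 3 was equal to that of acute Poly(I:C) replicate 3 and inside the range of the other stimulated arrays. Ly6g was 8.91 and 9.6 in naive replicates 1 and 2 and 2.54 in replicate 3, and its part in the Irak3 level was not tested. Against all 3 naive arrays none of the Irak3 changes passed, with 1.68 ± 0.88 for acute LPS and 2.67 ± 0.91 for re-stimulated Pam3CSK4 (adjusted p = 0.199 and 0.141). Without naive replicate 3 the rise was called in 6 comparisons, those with LPS, CpG and Pam3CSK4 in both states, at 2.77 to 3.75 (log2) and adjusted p between 0.000355 and 0.0351. The array left out there is the one with the outlying naive value, and outside LPS the stimulated groups keep their replicate 3. The Poly(I:C) changes were then 1.88 and 2.02 (adjusted p = 0.161 and 0.0774). From acute to re-stimulated LPS Irak3 rose by 0.90 ± 0.21 (adjusted p = 0.0212), a comparison without the naive arrays but across slides and with Ly6g above background in the re-stimulated arrays only. Without either re-stimulated array or acute replicate 1 or 2 the rise was 0.71 to 1.10 and lost the call (adjusted p from 0.0503 to 0.121). The changes with CpG, Pam3CSK4 and Poly(I:C) were 0.45 ± 0.25, 0.31 ± 0.29 and 0.15 ± 0.73 (adjusted p = 0.35, 0.701 and 0.917).

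**Figure D3:**
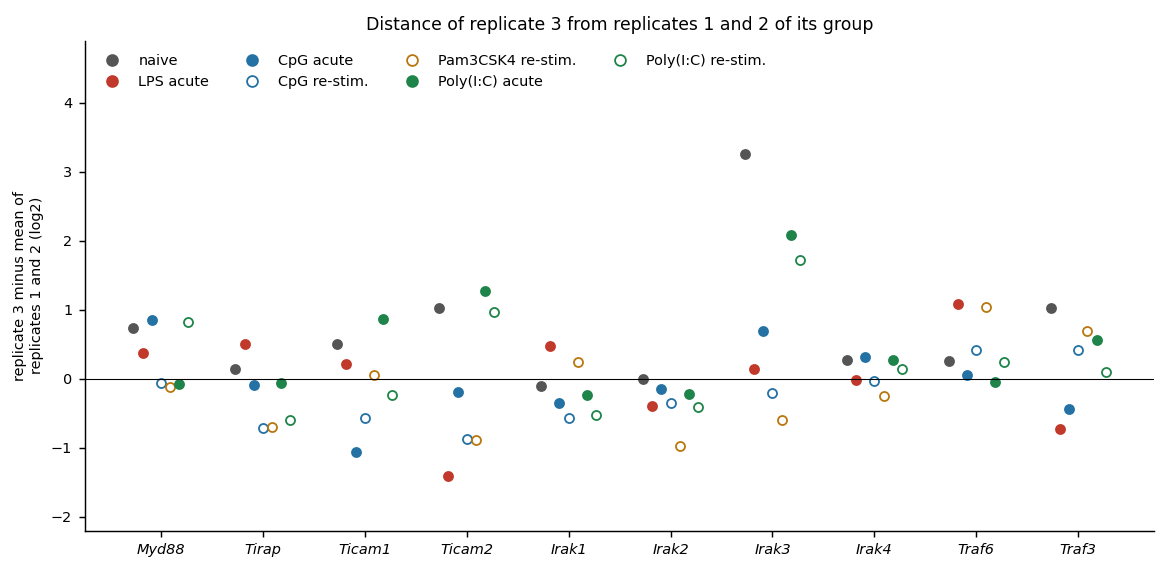
Replicate 3 minus the mean of replicates 1 and 2 (log2, vertical axis) for each gene in the 7 conditions with 3 arrays, 1 point per condition. Irak3 stands out with 3.26 in naive, 2.08 in acute and 1.73 in re-stimulated Poly(I:C) cells, and Ticam2 and Traf3 of naive replicate 3 are each 1.03 higher.

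Traf6, the ligase downstream of the IRAK kinases, ranged from 7.53 to 9.55 and none of its 12 comparisons passed. Its RefSeq probe passed in 0 of 12, and its remaining probe, well above background on 7 of 25 arrays, in 0 of the 10 where it could be tested. With LPS the brightest and the RefSeq probe ran opposite ways, each without overlap of the groups. From acute to re-stimulated LPS they gave -0.57 ± 0.38 and 0.49 ± 0.21, and from naive to re-stimulated LPS -0.42 ± 0.19 and 0.79 ± 0.46. Traf3, the ligase downstream of TRIF that also restrains MyD88 signalling, differed between ligands. Acute LPS gave 10.97, 11.15 and 10.33, and acute Poly(I:C) 10.99, 10.93 and 11.52. Acute CpG gave 12.04, 12.03 and 11.6, and acute Pam3CSK4 12.22 and 12.26. The arrays of acute LPS and Poly(I:C) all lay below those of acute CpG and Pam3CSK4. Naive arrays spanned both, at 10.95, 11.18 and 12.1, and none of the changes against naive passed. In re-stimulated cells the group means lay from 11.98 to 12.14, and LPS gave 11.94 and 12.19, and Poly(I:C) 12.18, 12 and 12.19. From acute to re-stimulated LPS, across slides, Traf3 rose by 1.25 ± 0.29 (adjusted p = 0.0211, 2.38-fold). Without LPS re-stimulated replicate 1 or 2 the rise was 1.38 or 1.12 and lost the call (adjusted p = 0.0683 and 0.116). The change with Poly(I:C) was 0.97 ± 0.21 with Poly(I:C) (adjusted p = 0.0555). The changes with CpG and Pam3CSK4 were 0.09 ± 0.22 and -0.10 ± 0.31 (adjusted p = 0.852 and 0.929).

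The 4 ligands were then compared with each other at matched times, in 1 limma fit of all 9 groups. Among the ligands that share slides, 3 pairs of acute groups gave 30 tests of the 10 genes, and 5 passed. Ticam1 was 1.85 ± 0.29 higher with acute CpG than with acute Poly(I:C) (adjusted p = 0.0012) and 2.07 ± 0.33 higher with Pam3CSK4 (adjusted p = 0.000529). Ticam2 was 2.09 ± 0.50 higher with CpG (adjusted p = 0.0233) and 2.21 ± 0.56 higher with Pam3CSK4 (adjusted p = 0.0212). Both Ticam2 calls were lost without Poly(I:C) replicate 1 or 2, the first also without CpG replicate 1 or 2 and the second without either Pam3CSK4 array, at 1.65 to 2.20 (adjusted p from 0.0645 to 0.149) and 1.77 to 2.25 (adjusted p from 0.063 to 0.14). With all 27 arrays they were 2.04 and 0.57 and not called (adjusted p = 1 and 0.711), and with normexp correction they were called at 1.14 and 1.22. Traf3 was 1.09 ± 0.32 higher with Pam3CSK4 (adjusted p = 0.0471), a call lost without either Pam3CSK4 array or without Poly(I:C) replicate 1 or 2 (0.98 to 1.11, adjusted p from 0.152 to 0.227). It was called under 7 of 11 alternatives, among which the other Irak2 and Traf6 probes leave the Traf3 fit unchanged. With all 27 arrays, which add acute Pam3CSK4 replicate 2, it turned to -0.18 (adjusted p = 0.854). Traf3 was 0.74 ± 0.29 higher with CpG (adjusted p = 0.185, not passed). Of all probes 3.92% were called between acute CpG and Poly(I:C) and 6.48% between acute Pam3CSK4 and Poly(I:C). Between acute CpG and acute Pam3CSK4 no gene passed, against 0.0292% of probes, and the 95% intervals of the difference ran from -0.92 to 0.46 for Ticam1 and from -1.30 to 1.06 for Ticam2.

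**Figure D4:**
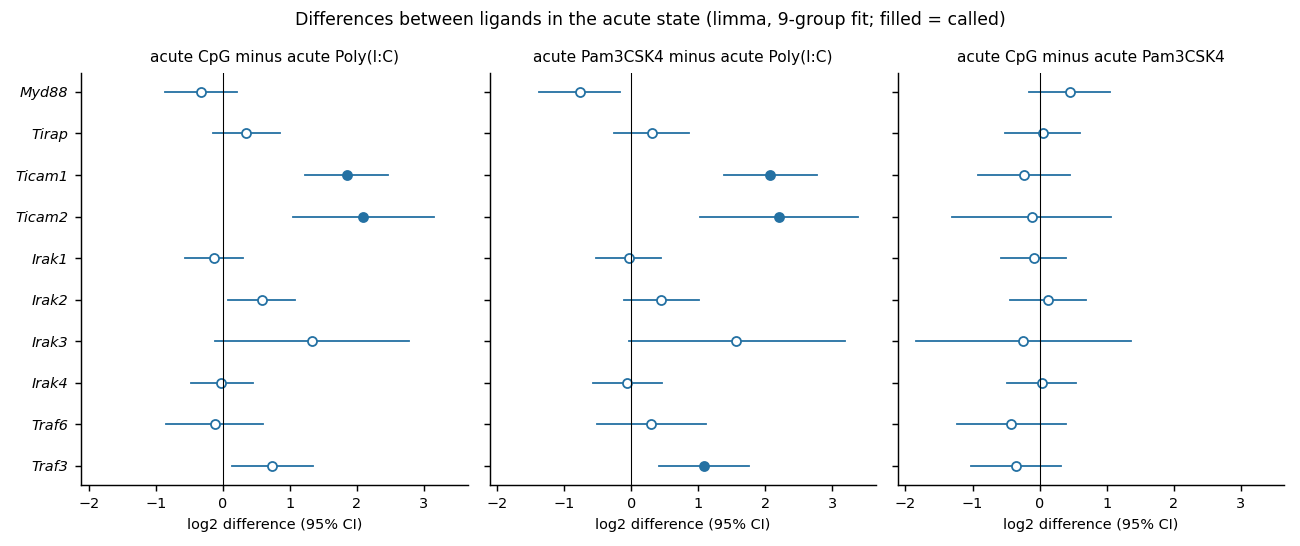
Difference between ligands in the acute level of each gene (log2, horizontal axis) with its 95% confidence interval, for the 3 pairs that share slides, with called differences filled. Ticam1 and Ticam2 lie near 2 in both comparisons with Poly(I:C) and near 0 between CpG and Pam3CSK4.

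In the re-stimulated state 6 pairs gave 60 tests and 1 passed: Ticam2 was 1.77 ± 0.50 higher with CpG than with Poly(I:C) (adjusted p = 0.0387), where 6.89% of probes were called. Without replicate 1 or 2 of either group that difference was 1.35 to 1.87 and lost the call (adjusted p from 0.0942 to 0.257). The difference of Ticam2 between Pam3CSK4 and Poly(I:C) was 1.58 ± 0.50 (adjusted p = 0.0514, and 0.0256 with the replicate block and without the acute LPS arrays), where 10.1% of probes were called. Between re-stimulated LPS and CpG, Pam3CSK4 and Poly(I:C) 0.0227%, 1.06% and 1.49% of probes were called, and between re-stimulated CpG and Pam3CSK4 0.11%. For Ticam1 the re-stimulated differences from Poly(I:C) were 0.37 ± 0.29 with CpG and 0.12 ± 0.29 with Pam3CSK4 (adjusted p = 0.527 and 0.857). For the change from acute to re-stimulated, none of 30 tests passed in the 3 pairs on shared slides, which leave out LPS. The Ticam1 change differed by -1.96 ± 0.44 between Pam3CSK4 and Poly(I:C) (adjusted p = 0.108) and by -1.48 ± 0.42 between CpG and Poly(I:C) (adjusted p = 0.237), where 0.101% and 0.0357% of probes were called, against 0.00325% between CpG and Pam3CSK4. The Myd88 differences that passed in this change, given above, are those between LPS and CpG or Pam3CSK4. Against acute LPS, on its other slides, Myd88 was higher with LPS than with CpG by 0.87 ± 0.26 (adjusted p = 0.0269) and than with Pam3CSK4 by 1.31 ± 0.29 (adjusted p = 0.0035). Traf3 differed by -1.07 ± 0.29 between LPS and CpG (adjusted p = 0.0155) and by -1.42 ± 0.32 between LPS and Pam3CSK4 (adjusted p = 0.00427). Ticam1 and Ticam2 were higher with LPS than with Poly(I:C) by 1.30 ± 0.29 and 1.79 ± 0.50 (adjusted p = 0.00839 and 0.0275). In the pairs of LPS with CpG, Pam3CSK4 and Poly(I:C), 15.5%, 17.6% and 10.7% of all probes were called.

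Other genes of the pathway were taken as a list of 37, of which 36 were tested in all comparisons but acute against re-stimulated CpG, where 35 were. The list was chosen with earlier results of these data known. It counts the brightest probe of each gene, whereas the shares of all probes cover every probe tested, so the 2 are not matched. The median change of the listed genes after acute LPS, CpG, Pam3CSK4 and Poly(I:C) was 0.52, 0.39, 0.25 and 0.25. Against naive cells 18 were called after acute LPS (13 higher, 5 lower), or 50% of those tested where 26.5% of all probes were called. After CpG 6 were called (16.7%, against 5.72% of all probes), after Pam3CSK4 0 (0% of all probes) and after Poly(I:C) 7 (19.4%, against 6.03%). Traf1, a TRAF that lacks the ligase domain, rose by 4.31 ± 0.28 with LPS (adjusted p = 0.000601), by 4.75 ± 0.35 with CpG (adjusted p = 0.00459) and by 3.15 ± 0.63 with Poly(I:C) (adjusted p = 0.0463). Peli1, an E3 ligase that acts on IRAK1, rose by 4.23 ± 0.21, 2.86 ± 0.56 and 3.75 ± 0.19 with the same ligands (adjusted p = 0.000317, 0.042 and 0.00133). Tank, a binding partner of TRAF proteins, rose by 2.68 ± 0.26, 1.90 ± 0.29 and 2.08 ± 0.30 (adjusted p = 0.00151, 0.0262 and 0.0194). From acute to re-stimulated LPS 15 of the list were called (8 higher, 7 lower), or 41.7% against 34.2% of all probes, among them Map3k8, the kinase TPL2, which differed by -2.60 ± 0.22 (adjusted p = 0.000881). Irf7, an interferon regulatory factor, rose there by 2.22 ± 0.28 (adjusted p = 0.00282), and the adapter Tbkbp1 by 1.73 ± 0.24 (adjusted p = 0.00376). With Poly(I:C) re-stimulation 2 were called (5.56%, against 4.93% of all probes), Irf7 at 2.05 ± 0.39 (adjusted p = 0.0424) and Traf4, which was well above background on 0 of 3 acute and 3 of 3 re-stimulated arrays. With CpG and Pam3CSK4 re-stimulation 0 were called.

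Against naive, re-stimulated cells had 5, 7, 3 and 7 of these genes called with LPS, CpG, Pam3CSK4 and Poly(I:C), or 13.9%, 19.4%, 8.33% and 19.4%, against 5.66%, 13.1%, 5.36% and 9.03% of all probes. Traf1 rose with all 4 ligands, by 5.29 ± 0.39, 4.11 ± 0.37, 3.32 ± 0.30 and 5.07 ± 0.42 in that order (adjusted p = 0.0105, 0.00507, 0.0141 and 0.00586). Peli1 rose by 2.97 ± 0.21 with LPS, 2.70 ± 0.19 with CpG and 3.01 ± 0.33 with Poly(I:C) (adjusted p = 0.0101, 0.00284 and 0.00925). Irf7 rose by 3.98 ± 0.66 with LPS and 4.13 ± 0.63 with Poly(I:C) (adjusted p = 0.0425 and 0.0189). Tank rose by 1.63 ± 0.25 with CpG and 1.28 ± 0.25 with Pam3CSK4 (adjusted p = 0.0158 and 0.0464), and Cd14, a co-receptor of TLR4 and TLR2, rose by 1.20 ± 0.21 with Pam3CSK4 (adjusted p = 0.0368).

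The genes most like 4 of the members were sought over the 9 group means, among 7164 or 7165 other genes. Gm2695 (r = 0.972) and Cd69 (r = 0.949) were among the 3 closest to Myd88, beside a probe without a gene symbol. Akna (r = 0.915), Gdf15 (r = 0.911) and Micall2 (r = 0.903) were closest to Ticam1, and Lztfl1 (r = 0.979) and Trim13 (r = 0.973) to Irak2. Marco (r = 0.96), Gpr18 (r = 0.958) and Rasgrf1 (r = 0.949) were closest to Irak3. The 9 points of each correlation share slides and replicate cultures, and for Irak3 the naive mean includes naive replicate 3.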

How the data were processed

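The authors deposited log2 values for 25 arrays, made in limma with RMA background correction and quantile normalization, and these were used as they stand. They also deposited each array's scanner intensity values, which gave the background and saturation flags, the gene names, the slides and the alternatives. Values made again from the intensities differed from the deposited log2 values by a median of 0.0355. The 2 arrays without deposited values, LPS re-stimulated replicate 3 and acute Pam3CSK4 replicate 2, were left out and entered only 1 alternative.

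Each pair of groups was fitted with limma 3.58.1 in R 4.3.3 on probes that the scanner software marked as clearly over background in 2 or more arrays of 1 of the groups. Benjamini-Hochberg adjustment covered all probes tested, and a call needed an adjusted p under 0.05 and 1.5-fold. A gene was represented by the probe with the highest mean. Differences between ligands came from 1 fit of 9 groups. The number of arrays limits the precision. The fitting procedure was also run on simulated arrays with planted changes and independent noise. That noise held no slide or replicate effect, so the run does not test the calls given here.

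The members and the lists of pathway genes and markers were chosen with earlier results of these data known. All members were described, and of the pathway list the 3 called genes with the largest change in each comparison. The labels number the replicates. Arrays with the same number were compared by how they departed from their groups. The correlations were 0.104 to 0.437 in the 7 comparisons with 3 pairs outside LPS, where same-numbered arrays went together. Outside acute LPS the replicate number is also the slide, so a shared culture and a shared slide cannot be told apart. In the 3 comparisons with LPS the correlations were 0.01 to 0.095 and showed no pairing. Those with re-stimulated LPS rest on its 2 arrays. Promoter windows and symbols came from RefSeq (GRCm38.p6), and probe positions from the arrays (mm9).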

Additional observations from a re-analysis of the deposited data

Results flagged for a closer look

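Differences between ligands that passed the test of the difference itself are listed here as log2 differences. In the acute state, on shared slides, they were Ticam1 at 1.85 (CpG minus Poly(I:C)) and 2.07 (Pam3CSK4 minus Poly(I:C)), Ticam2 at 2.09 and 2.21, and Traf3 at 1.09 for Pam3CSK4 minus Poly(I:C), which turned to -0.18 with all 27 arrays. In the re-stimulated state Ticam2 differed by 1.77 between CpG and Poly(I:C). With acute LPS, whose slides are its own, Myd88 differed by 0.87 from CpG and 1.31 from Pam3CSK4, Traf3 by -1.07 and -1.42, Ticam1 by 1.30 from Poly(I:C) and Ticam2 by 1.79. For the change on re-stimulation Myd88 differed by -1.40 between LPS and CpG and by -1.53 between LPS and Pam3CSK4. The Ticam1 differences on shared slides passed under all 11 alternatives and on leaving out each array in turn. On shared slides Ticam2 passed under 10 and 9 of 11 alternatives in the acute state, and lost the call on leaving out any of 4 arrays in each comparison. With all 27 arrays its difference between Pam3CSK4 and Poly(I:C) was 0.57 (adjusted p = 0.711). Among the 11 alternatives, the other Irak2 and Traf6 probes left the fits of Ticam1, Ticam2 and Traf3 unchanged and could not test them. The mean of a gene's probes left their values unchanged, as each has 1 probe. Replicates 1 and 2 were chosen after seeing the data and leave 1 acute Pam3CSK4 array.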

How the results depend on the processing

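Median scaling moved the median change of all probes to between 0.11 and 0.78 (log2) over the 12 comparisons, from -0.1 to 0.06, so its counts are relative to a shifted centre. Of the numbers of genes called, those for acute LPS (2 in the main setting) were 1 without a filter on dim probes, 4 with the mean of a gene's probes, in the fit of all 9 groups or with the slide as a random block, 1 with the replicate block (pairing by number) and 5 with replicates 1 and 2 only. For acute CpG (2) they were 1 with the processed signal or the replicate block, 0 without a filter, 4 in the 9-group fit, 5 with the slide and 6 with replicates 1 and 2. For acute Pam3CSK4 (0) they were 2 in the 9-group fit and 5 with the slide. For acute Poly(I:C) (1) they were 2 in the 9-group fit or with the slide, 0 with the replicate block and 3 with replicates 1 and 2. For re-stimulated LPS against naive (0) they were 1 with normexp or median scaling, 2 with the processed signal, 3 in the 9-group fit or with the slide, and 4 with the replicate block or with replicates 1 and 2. For re-stimulated CpG (2) they were 4 with median scaling or replicates 1 and 2 and 1 with the block. For re-stimulated Pam3CSK4 (1) they were 2 with normexp, median scaling or the mean of probes, 0 with all 27 arrays, without a filter or with the block, 3 in the 9-group fit and 4 with the slide or with replicates 1 and 2. For re-stimulated Poly(I:C) (0) they were 1 with median scaling, the processed signal, the 9-group fit or the block, 3 with the slide and 4 with replicates 1 and 2. From acute to re-stimulated, LPS (3) gave 1 with all 27 arrays, CpG (0) gave 1 with the other Irak2 probe, and Poly(I:C) (0) gave 1 with normexp or median scaling, 2 in the 9-group fit and 3 with the slide or with replicates 1 and 2. Of the differences between ligands in the acute state (5 in the 3 pairs on shared slides) median scaling kept 3, all 27 arrays gave 2 and replicates 1 and 2 gave 10. In the re-stimulated state (1) normexp, the processed signal, the mean of probes, the slide and the replicate block gave 2, all 27 arrays and no filter 0, and replicates 1 and 2 gave 6. For the change on re-stimulation (0 in the 3 pairs on shared slides, LPS left out) the slide gave 1. The cause was not tested. With all 27 arrays the acute Traf3 difference between Pam3CSK4 and Poly(I:C) turned from 1.09 to -0.18 (adjusted p = 0.854). This setting adds acute Pam3CSK4 replicate 2, which gave 8.54 for Traf3 and had 22.6% of its spots marked as non-uniform.

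Leaving out each array in turn gave 1 to 4 genes for acute LPS, 0 to 4 for CpG, 0 to 2 for Pam3CSK4 and for Poly(I:C). Re-stimulated cells against naive gave 0 to 4 with LPS or CpG, 0 to 3 with Pam3CSK4 and 0 to 2 with Poly(I:C), and against acute 0 to 3 with LPS, 0 with CpG or Pam3CSK4 and 0 to 2 with Poly(I:C). The ligand differences were 2 to 5, 0 to 3 and 0 to 1. Where this left 1 array in a group, that array was taken to vary like the others. Same-numbered LPS arrays showed no pairing with the rest, so the replicate block is given for LPS only here. Replicates 1 and 2 only, and the other Irak2 and Traf6 probes, were chosen after seeing the data. Replicates 1 and 2 leave 1 acute Pam3CSK4 array. For this reason no count is given there for acute Pam3CSK4 against naive or re-stimulated cells. The change on re-stimulation between ligands has no count there either. The count given there for acute differences between ligands includes pairs with that array and rests on it in part.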

Other observations

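The 2 arrays without deposited values were read from their scanner files, in a normalization of all 27 arrays. LPS re-stimulated replicate 3 gave 12.7 for Myd88, 13.03 for Irak3 and 12.45 for Traf3, near the values of the 2 deposited arrays of its group. Further from them were 3.23 for Ticam2, 4.75 for Irak4, 6.37 for Traf6, 8.76 for Tirap and 11.64 for Ticam1. The deposited values were normalized without these 2 arrays, so the scales are not the same. Acute Pam3CSK4 replicate 2 gave 10.28 for Myd88 and 10.28 for Irak3, 12.35 for Ticam1, 8.54 for Traf3 and 3.12 for Ticam2. On these arrays 92.4% and 99.9% of probes were well above background. The scanner software marked 22.6% of the spots of acute Pam3CSK4 replicate 2 as non-uniform, against at most 0.349% on any other array.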
